A study of Equus caballus with 12 samples.

Results

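Solute carriers, ion pumps, ion channels and calcium handling genes made up 58 of the 11425 genes in the deposited table of in vitro matured horse oocytes. They were the rows whose Ensembl identifier the study's supplementary gene lists pair with a name starting SLC, ATP1, ATP2, ATP6, ATP11, CLCN, KCN, AQP, VDAC, MICU, MCU, ITPR, LETM, STIM, CALM or CAMK. The 58 genes were 7 calcium handling genes, 2 channels of the mitochondrial outer membrane (VDAC), 2 Na/K pump genes, 7 V-ATPase genes, 5 potassium channels, 31 other solute carriers, 2 P-type ATPases of other kinds (ATP10D and ATP13A3) and 2 genes that the name caught although they are not transporters (ITPRID2 and SLC4A1AP). No name starting CLCN, AQP, LETM, STIM, CAMK or ATP11 was paired with a row. Only 2625 of the 11425 identifiers had a name, and the longer of the name lists was ordered by fold change against fresh oocytes and shortened at its upper end in the copy used here. Names therefore favoured genes that were lower in vitrified oocytes, so that the directions against fresh oocytes are given below as a description only.

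RNA was sequenced from pools of oocytes with an extruded polar body, on average 23 per pool by the labels, in 3 groups. FR (5 samples) were fresh oocytes that had been matured in vitro and denuded, and served as the control. VMAT (3 samples) were matured in vitro together with the FR oocytes, denuded, vitrified at metaphase II, warmed and returned to maturation medium before sampling. VIM (4 samples, called VGV in the labels) were vitrified while immature, with their corona radiata cells, then warmed, matured in vitro and denuded. The labels speak of 5 replicates per group, of which the 12 samples given here were analysed. By the study, VIM and VMAT samples were left out after checks of RNA amount and integrity, whereas all FR samples were kept. A further VMAT sample was removed for low RNA integrity, the lowest concentration and few reads. All oocytes came from slaughterhouse ovaries, and the sources do not say that the pools of a group came from different mares or days, so the spread between samples may be partly technical.

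At fertilization, the egg is activated by repeated releases of calcium from the endoplasmic reticulum through inositol trisphosphate receptors. Calcium pumps of the endoplasmic reticulum (SERCA) refill the store, pumps and sodium-calcium exchangers of the plasma membrane remove calcium from the cell, and mitochondria take it up through a uniporter whose opening is set by MICU proteins. Calmodulin binds calcium in the cytoplasm and passes the signal to kinases and phosphatases. The other genes described here move protons, sodium, potassium, metals, sugars, amino acids, lactate and lipids across membranes. A fully grown oocyte makes almost no new RNA, so the messages measured at metaphase II are mostly those that were stored and not yet degraded.

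Values below are normalized counts, that is, reads counted on a gene divided by a size factor for the sample. Reads here means the counts left after the authors' processing with molecular identifiers, not the number of reads sequenced, and depth below refers to these counts. Between 1636620 (VMAT replicate 1) and 12166950 reads (VMAT replicate 2) were counted per sample, and the other 10 samples had 2123138 to 4715119. The size factors were not proportional to these totals, with 0.321 in VMAT replicate 1 and 7.98 in VMAT replicate 2. Relative to total reads, normalized counts thus came out highest in VMAT replicate 1 and lowest in VMAT replicate 2. Share of reads below means the reads of a gene set against the total of its sample. The lowest level regarded as detectable, 3 reads, was a normalized count of 9.34 in VMAT replicate 1, of 0.376 in VMAT replicate 2 and of 1.51 to 4.89 in the others, and these floors cover counting error only. Of 20 oocyte markers on a fixed list, 13 had a name (among them GDF9, BMP15, ZP2 and ZP4), and their summed normalized count was 18576 to 24460 in VIM, 16597 to 33953 in VMAT and 19434 to 26490 in FR. Of 22 markers of cumulus and granulosa cells only HAS2 had a name, at 641 to 2144 in VIM, 254 to 1755 in VMAT and 462 to 1239 in FR. The amount of RNA left from cumulus cells could therefore not be judged from more than that gene.

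Most transporter genes were present in some pools and close to absent in others of the same group. Only 10 of the 58 genes (17.2%) had more than 30 reads in all 12 libraries, against 8.76% of the 8391 genes tested. Among them were CALM2, ATP2B1, the Na/K pump subunit ATP1B1, the potassium channels KCNK1 and KCNN2, the solute carriers SLC16A1, SLC25A13 and SLC20A1, and ITPRID2. By contrast, 35 genes had more than 300 reads in at least 1 library and 3 reads or fewer in another. The standard deviation of log2 values within a group had a median of 2.41 in VIM, 2.13 in VMAT and 2.50 in FR over the 58 genes, and of 2.04, 2.21 and 2.49 over all genes tested. A standard deviation above 1 was found for 44 genes in VIM, 49 in VMAT and 47 in FR.

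How many of the 58 genes were clearly present moved with depth. VMAT replicate 1, the shallowest library, held 17 of them above 30 reads, and VMAT replicate 2, the deepest, held 56. The other libraries held 28 to 46. The 58 genes together took 2.02% ± 0.302 of the reads in VIM (SD, n = 4), 1.96% ± 0.121 in VMAT (SD, n = 3) and 2.09% ± 0.504 in FR (SD, n = 5), which differed by less than the spread between replicates. CALM2 and SLC16A1 accounted for 42.9% to 73.5% of these reads.

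**Figure D1:**
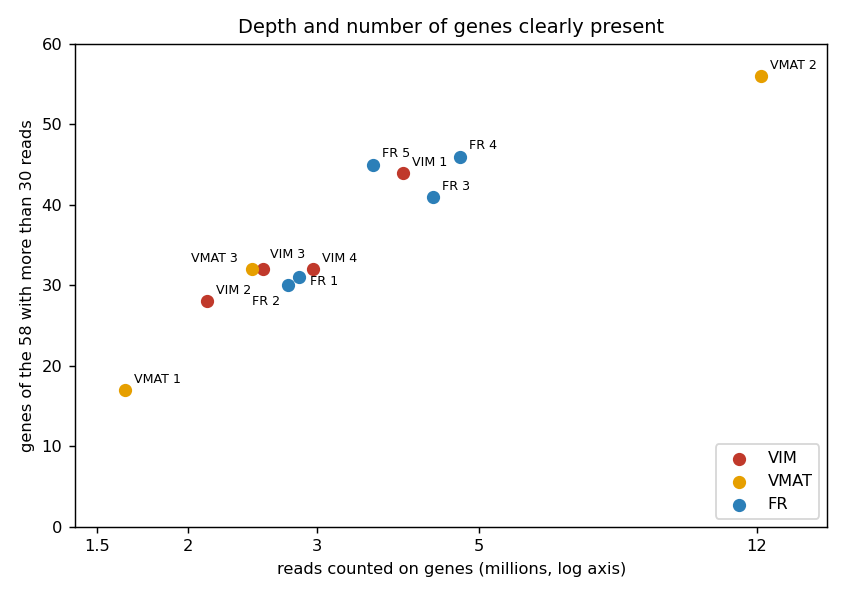
Number of the 58 genes with more than 30 reads (vertical axis) against the reads counted on genes in each library (reads in M, log axis), 1 point per library, coloured by group. The counts run from 17 in VMAT 1 to 56 in VMAT 2, the shallowest and the deepest library.

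**Figure D2:**
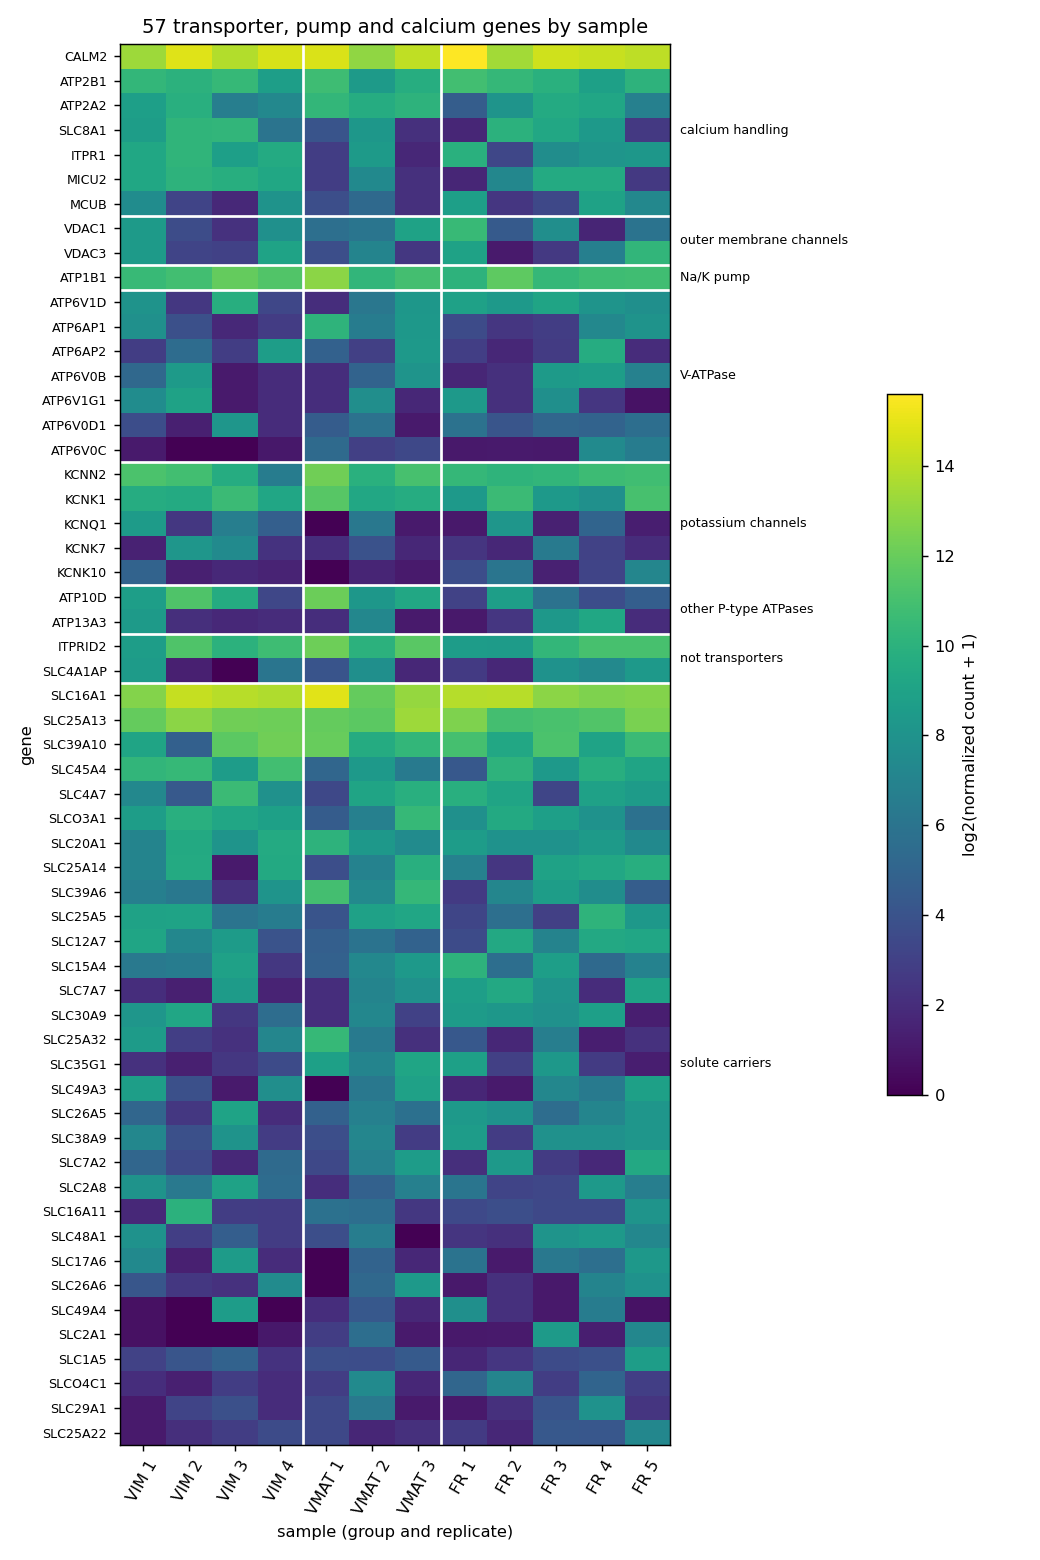
Level of 57 of the 58 genes (rows, grouped by role and ordered by mean) in each of the 12 samples (columns), as log2 of the normalized count plus 1. A few rows, led by CALM2 and SLC16A1, are bright in every sample, whereas most rows alternate between bright and dark samples within a group.

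ITPR1 (ENSECAG00000020933), the inositol trisphosphate receptor that releases stored calcium at egg activation, was at 619, 1196, 449 and 749 in the VIM samples. It was at 6.22, 358 and 2.36 in the VMAT samples and at 966, 9.15, 202, 277 and 299.9 in the FR samples, in the order of the replicates. In normalized counts all 4 VIM samples were above all 3 VMAT samples. VMAT replicates 1 and 3 held only 2 reads each, whereas 4 of the 5 FR samples were above 200. VIM replicate 3 held 373 of its 2529193 reads and VMAT replicate 2 held 2860 of 12166950. By share of reads VMAT replicate 2 was thus the higher, and the separation of VIM from VMAT rests on the size factors. ATP2A2 (ENSECAG00000007671), the SERCA pump that refills the store, was at 438, 931, 101 and 153 in VIM, at 1282, 809 and 1075 in VMAT and at 23.7, 269.9, 749.6, 596 and 109.5 in FR. For this gene the VMAT samples were the high ones in normalized counts, each of them above every FR sample, while VIM overlapped with both. VMAT replicate 1 held 412 of its 1636620 reads and FR replicate 3 held 1339 of 4331042. By share of reads FR replicate 3 was the higher, so this separation also rests on the size factors.

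The genes that remove calcium from the cell were ATP2B1 and SLC8A1. ATP2B1 (ENSECAG00000008450), the calcium pump of the plasma membrane, was at 1310.0, 1024, 1376 and 426 in VIM, at 1758, 362 and 852 in VMAT and at 1904, 1334, 960.1, 472 and 1097 in FR. It was above 30 reads in every library, and the ranges of the 3 groups overlapped. SLC8A1 (ENSECAG00000004050), a sodium-calcium exchanger, was at 403, 1165, 1216 and 63.6 in VIM, at 15.6, 304 and 3.54 in VMAT and at 2.16, 1018, 651, 331 and 5.01 in FR. It was above 30 reads in every VIM sample, in 1 of 3 VMAT samples and in 3 of 5 FR samples, and VMAT replicate 2 exceeded the lowest VIM sample.

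In the mitochondrial uptake of calcium, MICU2 (ENSECAG00000016494), a calcium-sensing gatekeeper of the uniporter, was at 634, 1068, 870.0 and 628 in VIM, the most even group of values for this gene. It was at 6.22, 166 and 3.54 in VMAT and at 2.16, 148, 727, 750.2 and 5.01 in FR. Every VIM sample exceeded every VMAT sample, and FR was divided between 2 samples at the VIM level, 1 in between and 2 with 2 and 7 reads. The 4 libraries with fewer than 10 reads of MICU2 (VMAT replicates 1 and 3, FR replicates 1 and 5) also had fewer than 10 reads of SLC8A1. MCUB (ENSECAG00000016301), which acts as a dominant negative subunit of the uniporter, was at 187, 8.15, 2.41 and 257 in VIM, at 12.4, 38.9 and 3.54 in VMAT and at 447, 4.58, 9.52, 497 and 152 in FR, with high and low samples in VIM and FR alike.

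CALM2 (ENSECAG00000008396), calmodulin, was at 10372, 29574, 14289.5 and 26269 in VIM, at 26572, 8381 and 17655 in VMAT and at 49589.6, 11058, 22894, 20109 and 17009.5 in FR. All 3 ranges overlapped, and the highest and the lowest FR sample differed more than the group means did. Calmodulin is encoded by several genes with the same protein, and reads shared with a similar copy could have been divided between them in counting. VDAC1 and VDAC3, pores of the mitochondrial outer membrane that let metabolites and calcium through, were at 2.02 to 1479 and 1.14 to 1243 over the 12 samples. Both were above 30 reads in 2 of 4 VIM and 3 of 5 FR samples, and no group stood apart.

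**Figure D3:**
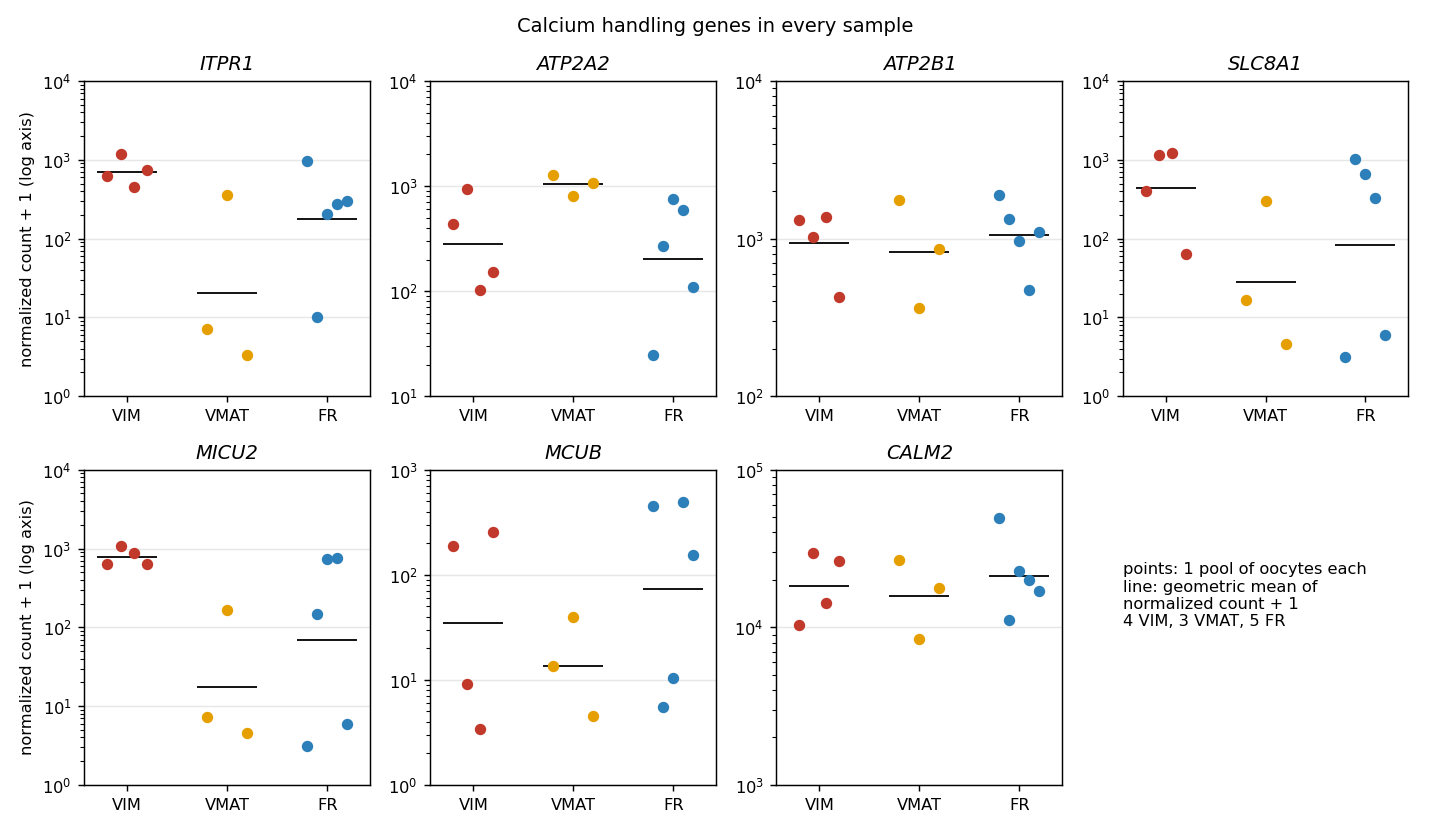
Normalized count plus 1 (log axis) of the 7 calcium handling genes in each sample of VIM (n = 4), VMAT (n = 3) and FR (n = 5), with the geometric mean of each group as a line. For ITPR1 and MICU2 all VIM points lie above all VMAT points, for ATP2A2 all VMAT points lie above all FR points, and CALM2 and ATP2B1 overlap in all groups. By share of reads the separations of ITPR1 and ATP2A2 did not hold.

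The question of the study was whether vitrification before or after maturation alters the messages of the mature oocyte, so VIM, VMAT and FR were compared in pairs with limma on log2 of the normalized count plus 1, over all genes tested. Of the 7 calcium handling genes, 0 passed a false discovery rate of 0.05 (Benjamini-Hochberg over all genes tested) together with a change of at least 1 on the log2 scale, termed called from here on, in any comparison, as was the case for all 58 genes. In VIM vs. VMAT, the log2 fold change was 5.47 for MICU2 (standard error 1.83, limma unadjusted p = 0.00332, adjusted p = 0.967). It was 5.10 for ITPR1 (standard error 1.84, limma unadjusted p = 0.00625, adjusted p = 0.967) and 3.95 for SLC8A1 (standard error 1.90, limma unadjusted p = 0.04). These were 3 of the 6 transporter genes with the smallest p in that comparison, and MICU2 and ITPR1 had the smallest among all 58. An exact two-sided permutation test gave p = 0.0286 for MICU2 and ITPR1, the smallest value that 4 against 3 samples allow, and p = 0.114 for SLC8A1. The permutation test was run on normalized counts only, and by share of reads the ITPR1 groups overlapped. Leaving out single samples, the log2 fold change ran from 4.49 to 7.09 for MICU2, from 3.80 to 7.17 for ITPR1 and from 2.63 to 5.66 for SLC8A1, in each case lowest without VMAT replicate 3 and highest without VMAT replicate 2.

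Counting tests on the recovered reads gave smaller folds for these genes. In DESeq2, the adjusted p in VIM vs. VMAT was 0.0391 for MICU2, 0.27 for ITPR1 and 0.262 for SLC8A1, and in edgeR 0.465, 0.705 and 0.709. Their log2 fold changes were 3.87, 2.74 and 2.84 in DESeq2, and 3.17, 2.005 and 2.10 in edgeR. HAS2, the only cumulus marker with a name, had overlapping ranges in VIM and VMAT, and its part in these differences was not tested. In pools of oocytes, fewer molecules per cell in every oocyte and loss from some of the oocytes cannot be told apart. The study links altered mRNA levels in such oocytes to polyadenylation as well as to degradation, and the part of either was not tested here.

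Against FR, limma called 0 of the 7 calcium handling genes (0% of all genes tested), and MICU2 in VIM was the only one with an unadjusted p under 0.05, against 3.78% of all genes tested (3.62% for VMAT). In VIM vs. FR, the log2 fold change was 3.50 for MICU2 (standard error 1.55, limma unadjusted p = 0.0338, adjusted p = 0.902), 2.38 for SLC8A1, 2.01 for ITPR1 and -1.05 for MCUB. The value for MCUB was 0.0746 without VIM replicate 3. In VMAT vs. FR, it was -3.09 for ITPR1, -2.43 for MCUB, -1.97 for MICU2 and -1.57 for SLC8A1, and 2.37 for ATP2A2 (standard error 1.28, limma adjusted p = 0.95). ATP2A2 had a log2 fold change of -1.87 in VIM vs. VMAT. The remaining differences of calcium handling genes were below 1 on the log2 scale against FR, and CALM2 and ATP2B1 stayed below 1 in all 3 comparisons, within their standard errors except for CALM2 in VMAT vs. FR (-0.43, standard error 0.41). VIM vs. FR and VMAT vs. FR share the FR samples and are not independent of each other.

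The Na/K pump keeps the sodium gradient on which many carriers run. Its beta subunit ATP1B1 was at 1476, 1871, 3791 and 2598 in VIM, at 7496, 1249 and 1971 in VMAT and at 1098, 3438, 1353, 1743 and 1804 in FR. It was present in every pool and all groups overlapped, with the highest value in VMAT replicate 1, the shallowest library.

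The V-ATPase acidifies lysosomes and other vesicles, and none of its 7 genes was above 30 reads in all 12 libraries. Of the rotor and stalk subunits, ATP6V1D was at 491, 342, 548, 267 and 219 in FR, at 254, 4.89, 869 and 8.8 in VIM and at 3.11, 72 and 303 in VMAT. The FR samples of ATP6V1D were all above 200, whereas 2 of 4 VIM samples and 1 of 3 VMAT samples were below 10. ATP6V1G1 was at 0.716 to 515 over the 12 samples, with high and low samples in each group. Of the membrane ring, ATP6V0C had 2, 0, 0 and 1 reads in the VIM samples, 13, 54 and 8 in the VMAT samples and 1, 1, 2, 347 and 131 in the FR samples. All VIM samples were thus at or under the floor of 3 reads, as were 3 FR samples, and a fold change would depend on the pseudocount. In DESeq2 the adjusted p of ATP6V0C was 0.0288 in VIM vs. FR, and in limma 0.902. ATP6V0B was at 1.21 to 404 and ATP6V0D1 at 1.18 to 293. The accessory protein gene ATP6AP1 was at 1148, 93.4 and 317 in VMAT and at 2.41 to 227 in VIM, and ATP6AP2, which encodes the prorenin receptor, was above 300 in 1 VIM, 1 VMAT and 1 FR sample only. Summed over the 7 genes, the normalized count was 426 to 1173 in VIM, 475 to 1248 in VMAT and 373 to 1846 in FR, without separation of the groups.

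Among the potassium channels, KCNN2, a channel opened by calcium through calmodulin, was at 2292, 1874, 807 and 92.9 in VIM, at 4802, 956 and 2161 in VMAT and at 1340.1, 1135, 1257, 1639.7 and 1783 in FR. The low value of VIM replicate 4 had no counterpart in FR, where the samples were within 1135 to 1783. KCNK1, a leak channel, was at 792, 745, 1592 and 595 in VIM, at 3034, 660.0 and 805 in VMAT and at 335, 1587, 336, 222 and 2145 in FR, and its groups overlapped. The leak channel KCNK10 was at 1.63 to 30.7 in VIM, 0 to 2 in VMAT and 1.68 to 145 in FR, and KCNK7 exceeded 50 in 2 VIM samples and 1 FR sample. The voltage-gated channel KCNQ1 was at 0 to 376 over the 12 samples, and above 30 reads in 2 of 4 VIM, 1 of 3 VMAT and 2 of 5 FR samples. With limma, 0 of these 5 genes had an unadjusted p under 0.05, against 2.98% to 3.78% of all genes tested in the 3 comparisons.

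ATP10D, a flippase subunit that moves lipids between membrane leaflets, was at 4462, 303 and 664 in VMAT, at 429, 2528, 788 and 8.8 in VIM and at 7.55, 421, 57.7, 11.6 and 24.3 in FR. It had the smallest p of the 58 genes in VMAT vs. FR, with a log2 fold change of 4.71 (standard error 1.71, limma unadjusted p = 0.00917, adjusted p = 0.95). The lowest VMAT sample, replicate 2, was nevertheless below FR replicate 2 in normalized counts, so that the groups overlapped. By share of reads this order was reversed (2417 of 12166950 against 368 of 2740837). ATP13A3, a transporter of polyamines, was above 100 in 1 VIM, 1 VMAT and 2 FR samples and below 5 in the others. ITPRID2, whose product interacts with inositol trisphosphate receptors, was at 403 to 2546 in VIM, 1032 to 4537 in VMAT and 373 to 2163 in FR, and SLC4A1AP at 0 to 383 over all samples.

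Of the 31 other solute carriers, SLC16A1, which carries lactate and pyruvate, was at 6715, 19478, 15699 and 13823 in VIM, at 29967, 3837 and 8948 in VMAT and at 14816, 15575, 7630.0, 6249 and 6648 in FR. SLC25A13, the mitochondrial carrier of aspartate and glutamate, was at 3822, 7612, 4696 and 4604 in VIM, at 3781, 3262 and 9963 in VMAT and at 6009.6, 1969, 2229, 2634 and 5627 in FR. Both were high in every pool with overlapping groups. The phosphate carrier SLC20A1 was also present throughout, at 128 to 1086.

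The zinc importers SLC39A10 and SLC39A6 are known for the uptake of zinc by the maturing oocyte. SLC39A10 was at 557, 26.1, 3301 and 4765 in VIM, at 3939.6, 787 and 1297 in VMAT and at 2018, 665, 2314, 529.7 and 1577 in FR, with 1 low pool in VIM. SLC39A6 was at 106, 73.3, 3.62 and 269.9 in VIM, at 1929, 164 and 1339 in VMAT and at 5.39, 141, 405, 196 and 22.9 in FR. For SLC39A6, VMAT replicates 1 and 3 were above all other samples. In normalized counts, VMAT replicate 2 was within the range of both other groups. By share of reads, VMAT replicate 2 (1308 of 12166950) was above the highest VIM sample (replicate 4, 276 of 2964979) and within the FR range. The log2 fold change of SLC39A6 was 3.42 in VMAT vs. FR (standard error 1.61, limma unadjusted p = 0.0413) and -3.75 in VIM vs. VMAT (standard error 1.79, limma unadjusted p = 0.0387), and the adjusted p was 0.95 and 0.967.

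SLC35G1, a membrane protein known as a partner of the calcium store sensor STIM1, was at 3.68, 1.63, 4.82 and 10.8 in VIM and at 469.9, 130.4 and 580.1 in VMAT. In FR it was at 467, 6.86, 324, 5.55 and 1.43. Every VMAT sample was above every VIM sample, in which 6, 1, 4 and 11 reads were found, and FR held both high and low samples. VIM and VMAT differed by a log2 fold change of -5.94 (standard error 2.61, limma unadjusted p = 0.0245, adjusted p = 0.967), and it stayed between -6.60 and -5.53 when single samples were left out. The adjusted p from DESeq2 was 0.00293 in VIM vs. VMAT and 0.0334 in VIM vs. FR.

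SLC45A4 had the opposite order, at 1206, 1412, 395 and 1889 in VIM, at 34.2, 337 and 80.2 in VMAT and at 18.3, 1091, 336, 894 and 552 in FR. In normalized counts all VIM samples were above all VMAT samples, with a log2 fold change of 3.43 (standard error 1.43, limma unadjusted p = 0.0177, adjusted p = 0.967, DESeq2 adjusted p = 0.0297). By share of reads VMAT replicate 2 (2692 of 12166950) was above VIM replicate 3 (328 of 2529193), so this separation rests on the size factors. The glucose transporter SLC2A1 had 1, 0, 0 and 1 reads in the VIM samples, 2, 386 and 1 in VMAT and 1, 1, 652, 3 and 208 in FR. All its VIM samples were at or under 1 read, but so were 1 VMAT and 2 FR samples, and a fold change would depend on the pseudocount. Its adjusted p in VIM vs. FR was 0.902 in limma and 0.00804 in DESeq2.

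SLC7A7, which carries cationic amino acids, was at 3.07, 1.63, 382 and 1.96 in VIM, at 3.11, 130.2 and 235 in VMAT and at 432, 678, 273, 3.03 and 538 in FR. It was high in 1 of 4 VIM and 4 of 5 FR samples, and its log2 fold change in VIM vs. FR was -4.08 (standard error 2.08, limma adjusted p = 0.902). SLC12A7, a potassium-chloride cotransporter, was at 24.9 to 60.6 in VMAT and at 10.8 to 691 in FR, with a log2 fold change of -2.54 (standard error 1.75, limma adjusted p = 0.95). The bicarbonate carrier SLC4A7 was at 8.4 to 1588, the organic anion carrier SLCO3A1 at 21.8 to 1388, SLC25A14 at 1.21 to 917 and SLC25A5, which exchanges ADP and ATP across the inner mitochondrial membrane, at 6.72 to 1121 over the 12 samples. SLC25A5 has near-identical copies in mammalian genomes, so that its reads could have been divided in counting. These 4 genes had overlapping groups in all 3 comparisons. The other 17 solute carriers had a mean normalized count of 19.1 to 241 and were above 30 reads in 2 to 10 libraries each, and their smallest limma p over the 3 comparisons was 0.129.

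In VIM vs. VMAT, limma called 0 of the 58 genes, against 0% of 7627 genes tested, and 6 of the 58 had an unadjusted p under 0.05, against 2.98% of all genes tested. MICU2, ITPR1, SLC45A4 and SLC8A1 were the 4 with higher values in VIM (0.97% of all genes tested), and SLC35G1 and SLC39A6 the 2 with lower values (2.01%). In 6 genes the groups did not overlap, against 4.5% of all genes tested. ITPR1, MICU2 and SLC45A4 had the higher values in VIM (1.72% of all genes tested) and ATP6V0C, SLC2A1 and SLC35G1 the lower (2.78%), and for ATP6V0C and SLC2A1 this rests on VIM samples with at most 2 reads. By share of reads VMAT replicate 2 was above VIM replicate 3 for ITPR1 and SLC45A4, so their separation rests on the size factors. MICU2 and SLC35G1 stayed apart by share of reads. Without VMAT replicate 2 the number of genes without overlap in normalized counts was 13, and without VMAT replicate 3 it was 10. Leaving out a sample can only keep or raise this number, and the reason for the size of the rise was not tested. With VMAT replicate 3 left out, 3 genes had an unadjusted p under 0.05. DESeq2 on the recovered reads called 3 (MICU2, SLC45A4 and SLC35G1), against 3.87% of all genes tested, and edgeR 0, against 0.0131%. An unadjusted p under 0.05 was found for 9 of the 58 genes with DESeq2 (11.1% of all genes tested) and for 2 with edgeR (10.8%). The median log2 fold change was -0.08 both over the 58 genes and over all genes tested. Of the 58, 55.2% were below 0, against 52.2% of all genes tested and 48.8% of the 2625 genes that had a name.

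**Figure D4:**
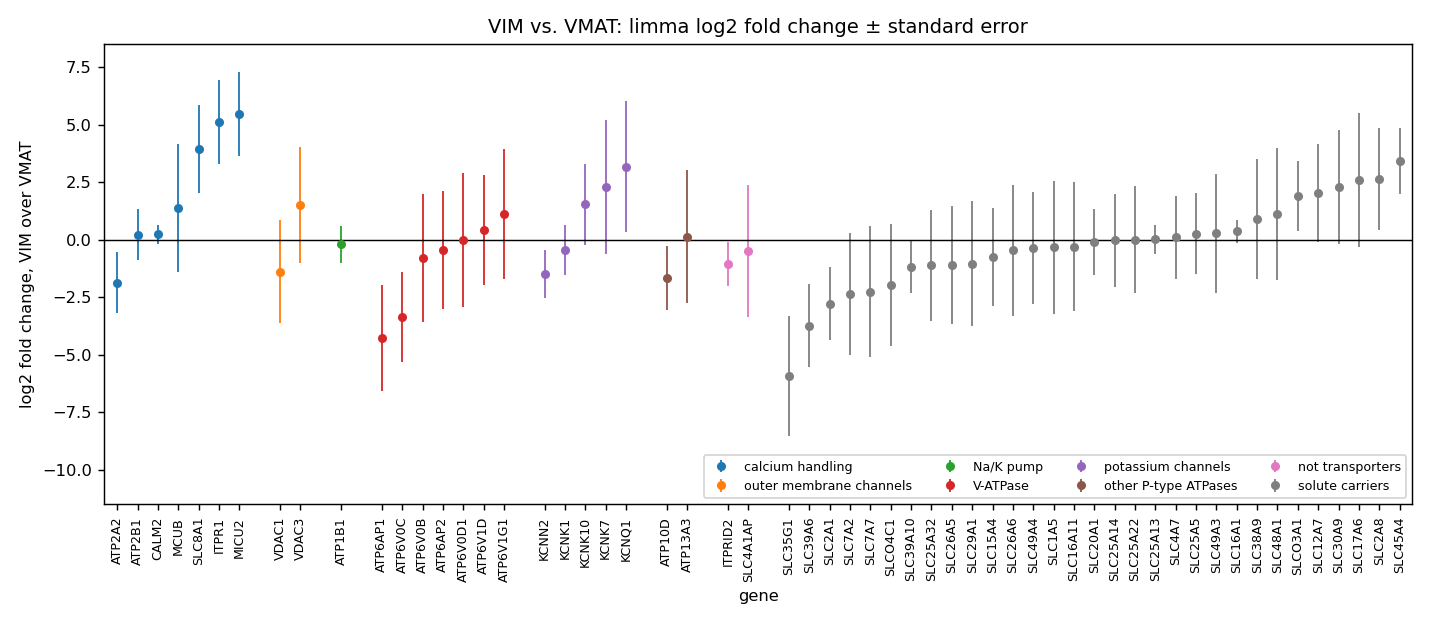
Log2 fold change of VIM over VMAT from limma for 57 of the 58 genes (points, with the standard error as bars), grouped by role. MICU2 (5.47) and ITPR1 (5.10) have the highest and SLC35G1 (-5.94) the lowest value, and most bars are several log2 units long.

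In VIM vs. FR, limma called 0 of the 58 genes (0% of 7351 genes tested), and 1, MICU2, had an unadjusted p under 0.05, against 3.78% of all genes tested (2.12% with higher and 1.66% with lower values in VIM). The number was 0 without FR replicate 5 or VIM replicate 2, 2 without FR replicate 2 or FR replicate 4, and 3 without VIM replicate 3. The groups of 2 genes did not overlap (1.59% of all genes tested), namely SLC2A1 and the organic anion carrier SLCO4C1, both with the lower values in VIM (0.639% of all genes tested, against 0.952% with the higher), and 6 genes did not overlap without VIM replicate 3. For SLC2A1 the separation lies between samples with 1 read each, and for SLCO4C1 between 5 reads in VIM replicate 3 (6.03) and 11 reads in FR replicate 3 (6.16), so that both rest on the size factors. DESeq2 called SLC2A1, ATP6V0C and SLC35G1, all lower in VIM, against 6.87% of all genes tested, and edgeR 0 genes, as over all genes. An unadjusted p under 0.05 was found for 6 of the 58 genes with DESeq2 (12.9% of all genes tested) and for 3 with edgeR (16.8%). The log2 fold change was below 0 for 35 of the 58 genes (60.3%), compared with 53.1% of all genes tested and 58% of the 2625 genes that had a name.

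In VMAT vs. FR, limma called 0 of the 58 genes (0% of 8305 genes tested), and 2, ATP10D and SLC39A6, had an unadjusted p under 0.05, against 3.62% of all genes tested (2.41% with higher and 1.22% with lower values in VMAT). Without VMAT replicate 1 the number was 0, and without VMAT replicate 2 it was 4. ATP2A2 was the only one of the 58 whose groups did not overlap, against 3.19% of all genes tested (1.96% with higher and 1.23% with lower values in VMAT), and without VMAT replicate 2 there were 9 such genes. By share of reads the ATP2A2 groups overlapped, since FR replicate 3 was above VMAT replicate 1. Genes without overlap were not counted on that scale. DESeq2 and edgeR called 0 of the 58 genes, against 4.26% and 0.012% of all genes tested, and an unadjusted p under 0.05 was found for 5 genes with DESeq2 (10.8% of all genes tested) and for 2 with edgeR (13.6%). The log2 fold change was below 0 for 34 of the 58 genes (58.6%), compared with 49.7% of all genes tested and 58.7% of the genes that had a name.

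Of a list of 96 genes of calcium signalling and storage, 28 had a name, and 13 of these were among the 58 genes. The other 15 were calcium-binding, folding and other proteins of the secretory pathway (CALR, CANX, HSPA5, HSP90B1, PDIA3, SELENOK, BCAP31 and NUCB2), calcineurin and its regulator (PPP3CA, PPP3R1 and RCAN3), PLCB3, CAPN2, CALCOCO2 and TMEM165. The list was drawn up with earlier results of these data known, and names came only from the study's lists for these same samples. The shares over all genes tested are therefore given for scale and are not an independent background. With limma, 0 of the 28 genes were called in any comparison. DESeq2 called RCAN3 and SLC35G1 in VIM vs. FR, RCAN3 and CALCOCO2 in VMAT vs. FR, and MICU2, PDIA3, CALCOCO2 and SLC35G1 in VIM vs. VMAT, against 6.87%, 4.26% and 3.87% of all genes tested. In VIM vs. VMAT, 4 had an unadjusted p under 0.05 with higher values in VIM (ITPR1, MICU2, SLC8A1 and PDIA3), against 0.97% of all genes tested, and 2 with lower values (SLC35G1 and TMEM165), against 2.01%. PDIA3, a folding enzyme of the endoplasmic reticulum, was at 66.3, 1170.3, 1379.8 and 455 in VIM and at 3.11, 85.2 and 27.1 in VMAT, where VMAT replicate 2 exceeded the lowest VIM sample. TMEM165, a Golgi protein of calcium and manganese transport, was at 474, 9.78, 1.21 and 2.93 in VIM and at 3675, 444 and 454 in VMAT, and VIM replicate 1 was within the VMAT range. In VIM vs. FR, MICU2 and RCAN3 had an unadjusted p under 0.05 with higher values (2.12% of all genes tested) and PPP3R1, the regulatory subunit of calcineurin, with lower values (1.66%). RCAN3, a regulator of calcineurin, was at 339, 3.26, 699 and 311 in VIM, at 6.22, 251 and 542 in VMAT and at 5.39, 19.4, 3.36, 1.51 and 2.86 in FR, with 1 low sample each in VIM and VMAT. In VMAT vs. FR only TMEM165 had an unadjusted p under 0.05, with higher values (2.41% of all genes tested, and 1.22% with lower). The median log2 fold change of the 28 genes was -0.18 for VIM vs. FR (-0.12 over all genes tested), -0.08 for VMAT vs. FR (0.01) and -0.20 for VIM vs. VMAT (-0.08).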

How the data were processed

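Pools of in vitro matured horse oocytes were sequenced in 12 libraries, VIM (4), VMAT (3) and FR (5), grouped by the labels. Per the labels, 3' transcriptome libraries with molecular identifiers were made and processed by the authors with Trim Galore, STAR, SAMtools, UMI-tools, RSEM and DESeq2 on EquCab3.0. The deposited signal is a table of gene counts divided by size factors, and 100% of its values were whole multiples of 1 read (tolerance 0.01), so that reads were recovered. The authors' fold changes and p-values in their supplementary lists were not used. Gene names were taken from those lists, which pair 2625 identifiers with a name. The members and gene lists were chosen with earlier results of these data known.

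Pairs of groups were compared with limma 3.58.1 (R 4.3.3, variance trend) after adding 1 and taking log2, for genes detected in 4 or more samples for VIM vs. FR and 3 or more otherwise. Calls needed a Benjamini-Hochberg false discovery rate of 0.05 and a change of 1 or more on the log2 scale. edgeR 4.0.16 (quasi-likelihood) and DESeq2 1.42.0 on recovered reads, the replicate block and each sample left out were alternatives. On simulated data, all tools recovered the changed genes when replicates differed little. With a wide spread between replicates, limma and edgeR recovered almost none, and DESeq2 recovered a few and made more false than true calls. The simulated spread was the same for every gene and was not fitted to these data. The simulation therefore cannot tell how many of the DESeq2 calls reported here are false. Genes were named as all members other than solute carriers, the 10 solute carriers with the largest mean and the 3 with the smallest limma p in each comparison, except that 1 member is counted but not reported singly here. Gene positions were not analysed here.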

Additional observations from a re-analysis of the deposited data

Results flagged for a closer look

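On the log2 scale, 82 groups of 4 or 5 samples of the named genes were searched for a sample far from the others by Dixon's criterion, and 6 were found, where chance gives about 5% or 4.1. ATP13A3 was at 355 in VIM replicate 1 against 2.41 to 3.26 in the other VIM samples. KCNK10 was at 30.7 in VIM replicate 1 against 1.63 to 2.41. SLC7A7 was at 382 in VIM replicate 3 against 1.63 to 3.07, and at 3.03 in FR replicate 4 against 273 to 678 in the other FR samples. ATP6AP2 was at 809.7 in FR replicate 4 against 2.29 to 6.47. SLC4A7 was at 8.40 in FR replicate 3 against 377 to 933.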

How the results depend on the processing

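The number of genes called depended on the test. limma called 0 in each comparison, DESeq2 called 505 for VIM vs. FR, 354 for VMAT vs. FR and 295 when VIM was compared with VMAT, edgeR called 0, 1 and 1, and limma without trend 3 in VIM vs. FR. Of the 58 genes, DESeq2 called 3, 0 and 3 in the same order, and no other alternative called any. The number with an unadjusted p under 0.05 in VIM vs. FR was 6 with DESeq2, 3 with edgeR and 0 with all 12 samples in one fit. In VMAT vs. FR it was 5 with DESeq2 and 1 with all 12 samples, and in VIM vs. VMAT 2 with edgeR. The cause was not tested. With 1 sample left out, the number in the 3 comparisons, in this order, ran from 0 to 3, 0 to 4 and 3 to 6, and the number of genes without overlap, an alternative chosen after seeing the data, from 2 to 6, 1 to 9 and 7 to 13. Of 26 single fold changes, 1 changed its sign, that of MCUB in VIM vs. FR, which ran from -2.01 to 0.0746 and was highest without VIM replicate 3.

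Samples with the same replicate number did not deviate together (correlations of -0.030 to 0.013). The study says that FR and VMAT oocytes were matured in vitro together, but not that equal numbers mark the same batch. Whether samples were paired could therefore not be judged. With the replicate block, 0, 2 and 5 of the 58 genes had an unadjusted p under 0.05, in the order above. With only the 32 genes named in the list that is not ordered by fold change, 59.4%, 50% and 53.1% were below 0. Names from a reference table could not be tried, since the table given holds no Ensembl identifiers.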
